A study of Mus musculus with 14 samples.

Results

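The genes described here carry out and control sodium reabsorption in the distal nephron, the end stretch of the kidney tubule where salt excretion is set. They are 10 genes chosen by symbol: Scnn1a, Scnn1b, Scnn1g, Slc12a3, Wnk1, Wnk4, Stk39, Oxsr1, Nedd4l and Klhl3. All 10 were among the 20203 genes of the kidney count table, and 8 were among the 19660 genes of the liver count table. Scnn1b and Scnn1g were not among the liver genes, so they were analysed in kidney only. RNA was sequenced from male mice of 12 weeks that carried the Hap -6A form of a human angiotensinogen transgene. All 4 groups shared this genotype, and no group without the transgene was analysed here. Liver and kidney were each compared between a normal diet and a high salt diet, with 4 libraries per diet in liver and 3 per diet in kidney, 14 libraries in all. The salt content and duration of the diet are not given in the sources used here. The labels do not say whether each library came from its own animal, so p-values measure the spread between these libraries, which may be technical.

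The epithelial sodium channel (ENaC) lets sodium enter the principal cells of the collecting duct and connecting tubule, and its pore is built from an alpha, a beta and a gamma subunit. The sodium chloride cotransporter NCC, the target of thiazide diuretics, does the same task in the distal convoluted tubule. NCC is switched on by phosphorylation: WNK kinases activate SPAK and OSR1, which phosphorylate the cotransporter. The adaptor KLHL3 brings WNK kinases to a CUL3 ubiquitin ligase for degradation, and the ligase NEDD4-2 removes ENaC from the cell surface. Much of this control acts on proteins, which RNA counts do not measure. On the mouse genome (GRCm38, plus strand unless stated), Scnn1g (chr7:121734479-121768475) and Scnn1b (chr7:121865038-121918514) are neighbours on chromosome 7, and Scnn1a lies at chr6:125320659-125344943. Slc12a3 lies at chr8:94329201-94366214, Wnk1 at chr6:119923969-120038672 (minus strand) and Wnk4 at chr11:101260567-101277409. Stk39 lies at chr2:68210445-68472268, Oxsr1 at chr9:119238432-119322427 and Klhl3 at chr13:58000228-58113592, all on the minus strand.

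Kidney libraries held 16046069 to 22004915 gene counts and liver libraries 37267771 to 51487386. The values below are CPM, normalised read counts per gene that put every library on the same total, with library sizes scaled by edgeR's TMM method. Normal diet liver libraries 1 and 2 stood apart: transcripts of the mitochondrial genome took 2.30% and 2.06% of their counts, against 11.3% to 29.6% in the other 6 liver libraries and 23.5% to 41.2% in kidney. High salt liver libraries 5 and 6 were the most alike pair within a diet, with a chi-square per gene of 1.59 against 4.19 to 62.8 for the other pairs. Counting noise alone gives a value near 1 in that comparison, so this pair differed by little more. Kidney normal diet library 1 stood apart too, and its mitochondrial share, 41.2%, was the highest. Its chi-square per gene was 48.2 with normal diet library 2 and 48.2 with library 3, against 4.19 between those. The tissue labels were checked against marker genes. Kidney libraries had summed principal cell markers (Aqp2, Aqp3, Avpr2, Fxyd4 and Hsd11b2) of 94.3 to 154 CPM, and distal convoluted tubule markers (Pvalb, Calb1, Trpm6, Egf and Cnnm2) of 780 to 1176 CPM. The liver sums cover fewer genes: 1 of the 5 principal cell markers, Avpr2, at 0 to 0.264 CPM, and 4 of the 5 distal convoluted tubule markers, all but Pvalb, at 3.02 to 5.65 CPM. Most of the latter was Cnnm2, at means of 3.81 and 3.43 CPM on the normal and high salt diets. In liver, hepatocyte markers summed to at least 42657 CPM.

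Kidney and liver divided the genes by level. On the normal diet 7 of the 8 genes in both tables were higher in kidney past an adjusted p of 0.05 (edgeR quasi-likelihood fit of all 14 libraries, Benjamini-Hochberg over 16633 genes), and 0 were lower. Among all genes tested 32.2% were called higher in kidney and 32.9% lower. The median log2 difference, kidney over liver, was 2.17 over the 8 genes and -0.024 over all genes tested. Tissue and count table cannot be told apart here, since each tissue was quantified in its own table and at its own depth.

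Slc12a3, which encodes NCC, had the widest gap of the 8. The fit put it at 206 ± 11.6 CPM in kidney (SD, n = 3) and 0.178 ± 0.131 CPM in liver (SD, n = 4), a log2 difference of 10.18 (SE 0.55, edgeR adjusted p = 6.5e-10). The liver value rested on 3, 11, 4 and 4 counts in the normal diet libraries, so the size of the fold was poorly set. Liver on high salt held 5, 9, 28 and 12 counts of Slc12a3. The library with 28 counts, high salt library 7, also had the highest liver sums of proximal tubule markers (7.84 CPM, other liver libraries 0.476 to 4.52 CPM) and of thick ascending limb markers (1.97 CPM, others 0 to 0.548 CPM). Its summed distal convoluted tubule markers were 3.97 CPM, inside the 3.02 to 5.65 CPM of the other liver libraries, and its principal cell sum was 0. Among the former, Calb1 had 9 counts in library 7 and at most 3 in the others. The part of kidney tubule transcripts in the Slc12a3 count was not tested.

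Stk39, the gene of SPAK, came next with a log2 difference of 3.86 (SE 0.28, edgeR adjusted p = 1.8e-08). Wnk4, a kinase whose mutations cause familial hyperkalaemic hypertension, differed by 3.38 (SE 0.36, edgeR adjusted p = 1.0e-06). Wnk1, the long kinase of the same family and disease, differed by 2.56 (SE 0.36, edgeR adjusted p = 1.6e-05). The kidney makes a short Wnk1 transcript without most of the kinase domain in addition to the long one, and gene counts do not separate them. Klhl3 differed by 1.78 (SE 0.34, edgeR adjusted p = 0.00031).

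The calls for Nedd4l and Scnn1a depended on single libraries. Nedd4l, the gene of NEDD4-2, differed by 1.18 (SE 0.40, edgeR adjusted p = 0.017), and the edgeR adjusted p was 0.12 without kidney normal diet library 1 and 0.16 without liver normal diet libraries 1 and 2. Scnn1a, the gene of the ENaC alpha subunit, differed by 0.79 (SE 0.29, edgeR adjusted p = 0.025). Its edgeR adjusted p was 0.28 without kidney normal diet library 1, 0.068 without liver normal diet library 1, 0.069 without liver normal diet library 2 and 0.23 without both of these.

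Oxsr1, the gene of OSR1, was the exception to the kidney bias. The fit put it at 22.9 ± 6.95 CPM in kidney (SD, n = 3) and 24.3 ± 2.40 CPM in liver (SD, n = 4). The log2 difference was -0.083 with a 95% interval of -0.52 to 0.35 (edgeR adjusted p = 0.73). Its sign turned under other scalings, to 0.21 with upper quartile scaling, which moved the median of all genes by 0.30. SPAK and OSR1 are close relatives with the same substrates, so the ratio of their counts was taken within each library. Stk39 over Oxsr1 was 0.596 to 0.963 in the 6 kidney libraries and 0.0398 to 0.0714 in the 8 liver libraries. The ranges were far apart, so the mix of these kinase transcripts differed between the tissues in every library. Wnk1 over Wnk4 was 5.66 to 9.26 in kidney and 9.96 to 20.2 in liver, again without overlap.

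The promoters of the genes at both ends of this order are shown as examples. The tables of RefSeq promoters (build GRCm38.p6, 250 bases before to 50 after each start) held 8 of the 10 genes, and Scnn1a and Nedd4l were not matched. The 250 bases before the start are given 5′ to 3′ on the strand of the gene for Slc12a3 (chr8:94328958-94329207, plus strand) and Oxsr1 (chr9:119322428-119322677, minus strand). Capitals mark the TATA box (TATAAA), the CCAAT box and the GC box (GGGCGG) or their reverse complements.
Slc12a3: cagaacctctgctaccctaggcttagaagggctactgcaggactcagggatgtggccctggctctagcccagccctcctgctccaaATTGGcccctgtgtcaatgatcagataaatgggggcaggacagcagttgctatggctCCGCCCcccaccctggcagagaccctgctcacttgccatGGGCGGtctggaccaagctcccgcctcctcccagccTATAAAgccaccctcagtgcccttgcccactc
Oxsr1: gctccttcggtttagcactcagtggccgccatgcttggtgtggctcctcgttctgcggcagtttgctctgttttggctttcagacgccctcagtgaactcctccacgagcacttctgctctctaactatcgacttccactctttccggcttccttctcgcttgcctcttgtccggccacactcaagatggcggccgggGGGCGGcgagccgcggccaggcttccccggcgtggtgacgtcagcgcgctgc
TATAAA lay 32 bases upstream of the Slc12a3 start and in 0 of the other 7 promoters. Over the 300 bases it was present in 13.6% of the 32851 promoters in the table, counting both strands. CCAAT was also found in the Slc12a3 promoter alone among the 8 (37.4% of all promoters), and GGGCGG in 7 of 8, all but Klhl3 (35.7% of all). TGTTCT, a half-site of the element that corticosteroid receptors bind, was found in 0 of 8 (19.0% of all). The promoters also differed in CpG dinucleotides: the observed over expected ratio was 0.154 for Slc12a3, 0.824 for Oxsr1, 1.02 for Stk39 and 1.05 for Wnk1, against a median of 0.384 over all promoters. Scnn1b (0.352), Klhl3 (0.389), Wnk4 (0.571) and Scnn1g (0.592) lay between Slc12a3 and Oxsr1. The ratios did not follow the order of the tissue differences: Stk39, next after Slc12a3 in it, was above Oxsr1. These are descriptions of letters in the reference and do not show binding.

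Levels were compared between genes within each tissue, per 1000 merged exon bases of the GENCODE M21 basic transcripts. In kidney on the normal diet Slc12a3 was first at 53.7 ± 3.18 CPM per 1000 bases and Wnk1 was next at 20.8 ± 6.57 (SD, n = 3 each). The libraries of this pair did not overlap each other or those of the genes below. Scnn1a (8.66 ± 4.10), Wnk4 (7.30 ± 1.91), Stk39 (6.52 ± 0.505), Scnn1g (6.27 ± 0.678), Oxsr1 (6.04 ± 1.85) and Scnn1b (5.003 ± 1.11) followed, and each overlapped its neighbour in the order. Nedd4l (3.90 ± 1.71) and Klhl3 (2.62 ± 0.971) were lowest and overlapped as well. With this length the ranges of the 3 ENaC subunit genes overlapped pairwise in kidney on the normal diet. With the length of the longest coding transcript, Scnn1a (6.70 to 15.7) lay above Scnn1b (4.02 to 6.21). In liver the order was another one: Oxsr1 (4.41 ± 0.521), Scnn1a (3.48 ± 1.27) and Wnk1 (2.46 ± 1.31) led, and Wnk4 (0.490 ± 0.297), Stk39 (0.309 ± 0.0344) and Slc12a3 (0.0315 ± 0.0220) closed it (CPM per 1000 bases, SD, n = 4 each).

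**Figure D1:**
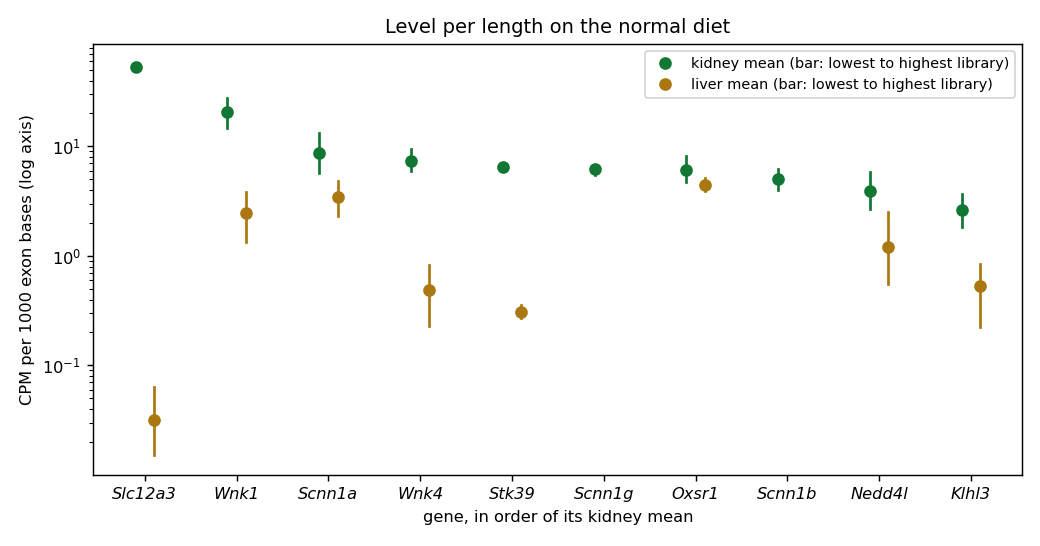
Level per length of each gene on the normal diet (vertical log axis, CPM per 1000 merged exon bases; points, means; bars, lowest to highest library; kidney n = 3, liver n = 4), ordered by the kidney mean. Slc12a3 spans the plot from 53.7 in kidney to 0.0315 in liver, while Oxsr1 stands at 6.04 and 4.41. Each tissue was scaled on its own, so kidney and liver points are not on 1 scale. In the fit of all 14 libraries Oxsr1 was at 22.9 CPM in kidney and 24.3 CPM in liver.

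In the kidney none of the 10 genes changed with high salt past the test. By edgeR, 0 of 10 had an adjusted p under 0.05, as did 0% of the 15847 genes tested. At an unadjusted p under 0.05 there were 0 of the 10 and 318 of all genes, and DESeq2 called 11 genes, 0 of them among the 10. In direction 2 genes were higher and 8 lower, with a median log2 change (high salt over normal diet) of -0.074 against -0.025 over all genes tested. In TMM-scaled CPM the groups did not overlap for 1 of the 10, Stk39, lower on high salt. Over all genes 3.07% were lower without overlap and 3.85% higher. Kidney normal diet library 1 had the highest CPM of the 6 for 9 of the 10 genes, all but Slc12a3, and normal diet library 3 was among the lowest pair for 9, all but Stk39. The shares of all genes that did so were not counted, and library 1 stood apart over the genes at large. There were 2627 genes at an unadjusted edgeR p under 0.05 without library 1, and 0 past the adjusted threshold.

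**Figure D2:**
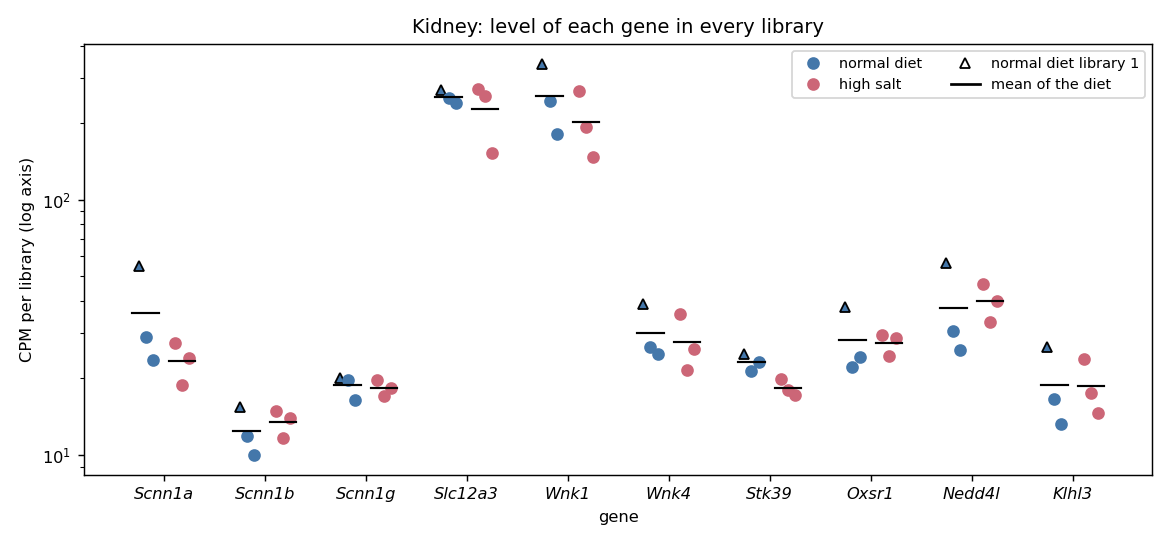
CPM of the 10 genes in each kidney library (vertical log axis; blue, normal diet; red, high salt; triangle, normal diet library 1; black lines, means; n = 3 per diet). The triangle is the highest point for 9 genes. For Stk39 the high salt points at 17.1 to 19.9 CPM all lie below the normal diet points at 21.3 to 24.8 CPM. That gap depends on the TMM scaling.

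Among the channel subunits, Scnn1a had the largest estimate. Its CPM was 55.1, 28.9 and 23.4 on the normal diet and 27.5, 18.8 and 23.9 on high salt. One normal diet library, number 1, stood well above the rest, and the diets overlapped. The log2 change was -0.61 (SE 0.33, 95% interval -1.38 to 0.15, edgeR adjusted p = 0.9996), and without that library it was -0.16 (edgeR adjusted p = 0.71).

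Scnn1b, the beta subunit, was at 15.4, 11.8 and 9.97 CPM on the normal diet and 14.9, 11.6 and 14.0015 CPM on high salt, a log2 change of 0.12 (95% interval -0.40 to 0.64). Scnn1g, the gamma subunit, was at 20.1, 19.7 and 16.4 CPM and then 19.6, 17.0 and 18.4 CPM, a log2 change of -0.032 (95% interval -0.45 to 0.38). Scnn1g varied least of the 10 genes over the 6 libraries, with a coefficient of variation of 8.30%, and Scnn1a most, with 43.9%.

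Counts of the alpha subunit were then set against the beta subunit within each library, which removes the scaling of libraries. Scnn1a over Scnn1b was 3.58, 2.44 and 2.35 on the normal diet and 1.85, 1.62 and 1.71 on high salt. All 3 high salt libraries were below all 3 normal diet libraries. The means were 2.79 ± 0.686 and 1.725 ± 0.115 (SD, n = 3 each), and the difference of -1.07 ranged from -1.29 to -0.67 when each library was left out and was -1.02 in the deposited normalized values. This ratio was looked at after the values were known and is given without a test. It was the only ratio taken in kidney whose diets did not overlap. The share of other gene pairs that separate the diets in this way was not counted. Scnn1g over Scnn1b overlapped between the diets, at 1.31 to 1.67 on the normal diet and 1.31 to 1.47 on high salt.

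**Figure D3:**
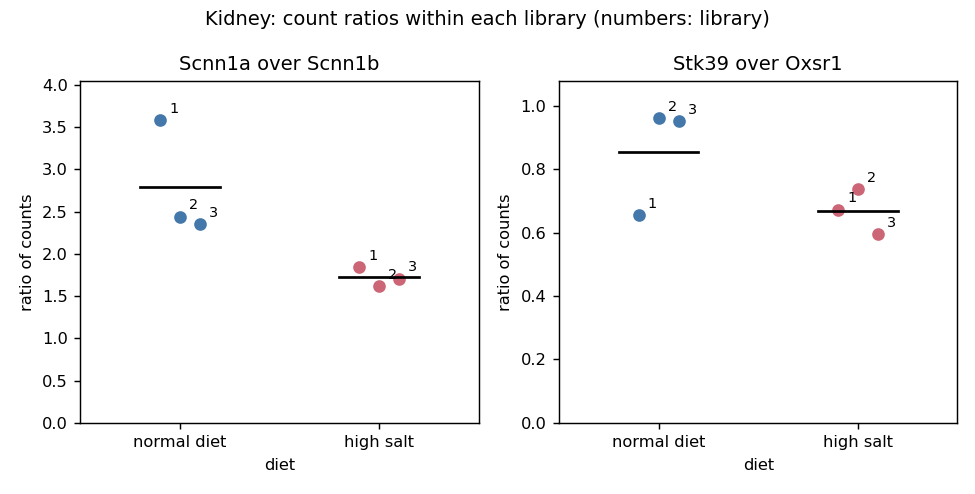
Ratios of counts within each kidney library by diet (vertical axes, ratio from 0; points, libraries with their numbers; black lines, means; n = 3 per diet). Scnn1a over Scnn1b is 2.35 to 3.58 on the normal diet and 1.62 to 1.85 on high salt, and Stk39 over Oxsr1 overlaps between the diets.

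Slc12a3 was at 269, 250 and 240 CPM on the normal diet and 272, 254 and 152 CPM on high salt. High salt library 3 alone was low, and the other 5 lay within a narrow range. The log2 change was -0.16 (SE 0.26, 95% interval -0.75 to 0.43), and without high salt library 3 it was 0.057. The summed level of the markers of the segment that makes NCC was 961 to 1176 CPM on the normal diet and 780 to 838 CPM on high salt, with no overlap. Of the other marker sums in kidney only muscle, 1 gene, did not overlap (1.64 to 1.89 and 0.126 to 0.357 CPM). The TMM factors of the kidney libraries split by diet too, at 0.872 to 0.956 and 0.990 to 1.25. The gap in the distal convoluted tubule sum depends on that scaling, and most of this sum was Egf and Calb1. Within that list Pvalb (log2 change -0.92) and Calb1 (-0.55), calcium-binding proteins of this segment, were lower without overlap at unadjusted p of 0.023 and 0.021 in edgeR, and 0 of the 5 markers passed the adjusted threshold (edgeR adjusted p = 0.9996 for both). The log2 changes of the others were -0.43 for Trpm6, -0.26 for Egf and -0.23 for Cnnm2, and their diets overlapped. In bulk tissue, fewer cells of a type and less RNA per cell cannot be told apart, and the part of this marker sum in the values of Slc12a3, Stk39 and the WNK genes was not tested.

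The WNK kinases had wide intervals. Wnk1 was at 341, 244 and 181 CPM on the normal diet and 266, 193 and 147 CPM on high salt, a log2 change of -0.34 (95% interval -1.06 to 0.38) that shrank to -0.074 without normal diet library 1. Wnk4 was at 39.1, 26.4 and 24.7 CPM and then 35.8, 21.4 and 25.9 CPM, a log2 change of -0.12 (95% interval -0.73 to 0.49), or 0.12 without that library. Both genes were highest in library 1 of each diet. Exons of Wnk4 overlap an antisense gene, Gm11615, over 306 bases (7.38% of the exon bases of all its annotated transcripts), and whether counting used strand is not stated, so a small part of the Wnk4 counts may belong to it.

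Of the kinases below WNK, Stk39 had the estimate with the smallest unadjusted p of the 10. It was at 24.8, 21.3 and 23.1 CPM on the normal diet and 19.9, 18.02 and 17.1 CPM on high salt. Each high salt library was below each normal diet library, by a narrow gap that depends on the TMM scaling. As a plain share of the gene counts the diets overlapped. High salt library 3 held 376 of 17599968 counts and normal diet library 2 held 363 of 19593301. The log2 change of Stk39 was -0.33 (SE 0.17, 95% interval -0.73 to 0.069, edgeR unadjusted p = 0.093, adjusted p = 0.9996). It stayed between -0.39 and -0.27 when each library was left out.

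Oxsr1 was at 37.9, 22.1 and 24.3 CPM on the normal diet and 29.5, 24.5 and 28.7 CPM on high salt, a log2 change of -0.027 (95% interval -0.58 to 0.53). The ratio of Stk39 to Oxsr1 was 0.655, 0.963 and 0.952 on the normal diet and 0.673, 0.737 and 0.596 on high salt. Normal diet library 1 sat among the high salt values there, so the diets overlapped.

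The ubiquitin ligase genes had estimates near 0 that moved most when normal diet library 1 was left out. Nedd4l was at 56.5, 30.6 and 25.7 CPM on the normal diet and 46.9, 33.1 and 40.2 CPM on high salt, a log2 change of 0.093 (95% interval -0.63 to 0.81). Without normal diet library 1 the change was 0.51 (edgeR unadjusted p = 0.028, adjusted p = 0.27). Klhl3 was at 26.5, 16.6 and 13.2 CPM and then 23.8, 17.5 and 14.6 CPM, a log2 change of -0.010 (95% interval -0.71 to 0.69), or 0.33 without that library. Leaving out library 1 turned the sign of Klhl3 and that of Oxsr1, to 0.25. Klhl3 also turned without high salt library 2 (0.034) or 3 (0.14). The sign of Nedd4l turned without normal diet library 2 (-0.037) or 3 (-0.12) or high salt library 1 (-0.033). A further antisense gene, A330084C13Rik, overlaps 277 bases of Nedd4l exons, 1.57% of the 17659 exon bases of all annotated Nedd4l transcripts.

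The gene most like Slc12a3 over the 6 kidney libraries was Lgr4, a receptor for R-spondins, with Pearson r = 0.98 on log2 CPM, followed by Snx21 (r = 0.96) and Pappa (r = 0.96). They were taken from 11820 genes with a mean of at least 50 counts, of which 7 had r over 0.95. Wnk1 had r = 0.77 with Slc12a3 and Stk39 r = 0.61. Only high salt library 3 was low for Slc12a3, and Wnk1 and Stk39 were lowest there too. That library therefore weighs heavily on these coefficients, which are a description.

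In the liver none of the 7 genes tested changed past the threshold. Slc12a3 had too few counts for the test. By edgeR, 0 of 7 were called, against 1.00% of the 15130 genes tested, and 0 had an unadjusted p under 0.05. DESeq2 called 0 of the 7 as well, with an unadjusted p of 0.044 for Scnn1a. The median log2 change was 0.54 over the 7 genes and -0.023 over all genes, with 6 of 7 higher on high salt. The diets overlapped for all 7, while 6.44% of all genes were higher and 6.05% lower without overlap.

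**Figure D4:**
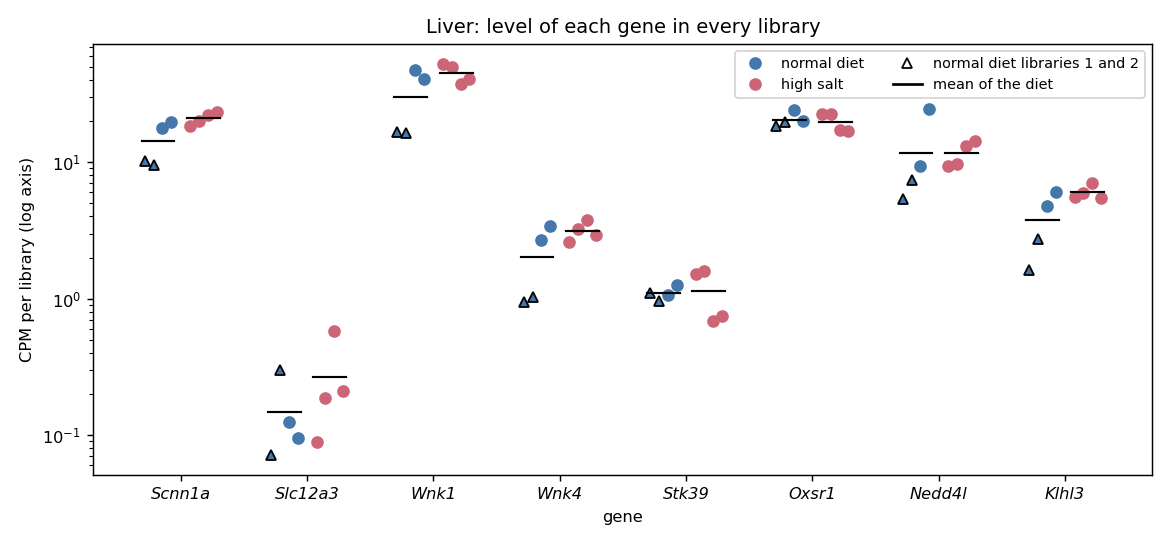
CPM of 8 genes in each liver library (vertical log axis; blue, normal diet; red, high salt; triangles, normal diet libraries 1 and 2; black lines, means; n = 4 per diet). For Scnn1a, Wnk1, Wnk4, Klhl3 and Nedd4l the triangles are the lowest pair, with Scnn1a at 10.2 and 9.59 CPM against 17.9 to 23.3 CPM in the other libraries.

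For Scnn1a, Wnk1, Wnk4 and Klhl3 the liver estimates rested on 2 libraries. Scnn1a was at 10.2, 9.59, 17.9 and 19.8 CPM on the normal diet and 18.3, 20.1, 22.0 and 23.3 CPM on high salt. Normal diet libraries 1 and 2, those with few mitochondrial transcripts, were the low ones, and libraries 3 and 4 lay at or near the high salt range. The estimate was a log2 change of 0.54 (SE 0.25, 95% interval -0.010 to 1.09, edgeR unadjusted p = 0.054, adjusted p = 0.24), and 0.15 without those libraries (edgeR adjusted p = 0.67).

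Wnk1 was at 16.7, 16.3, 47.5 and 40.3 CPM on the normal diet and 52.7, 49.5, 37.3 and 40.4 CPM on high salt. Its log2 change of 0.57 (95% interval -0.20 to 1.35) was 0.036 without normal diet libraries 1 and 2. Wnk4 was at 0.951, 1.04, 2.67 and 3.41 CPM and then 2.61, 3.23, 3.74 and 2.95 CPM, a change of 0.63 (95% interval -0.27 to 1.54), or 0.041 without them. Klhl3 followed the same pattern, at 1.62, 2.75, 4.81 and 6.01 CPM and then 5.56, 5.97, 7.05 and 5.49 CPM, a change of 0.66 (95% interval -0.13 to 1.45), or 0.15 without them. For these 4 genes the 2 libraries held the 2 lowest of the 8 values, and the part of their low mitochondrial share in this was not tested. The share of all genes with this pattern was not counted. These libraries stood apart over the genes at large, with a chi-square per gene of 9.83 between them. Against normal diet libraries 3 and 4 it was 50.6 to 62.8.

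Nedd4l had the largest coefficient of variation of the 7 tested genes in liver, 50.5%. It was at 5.35, 7.44, 9.37 and 24.3 CPM on the normal diet and 9.44, 9.70, 13.1 and 14.4 CPM on high salt, and normal diet library 4 was above all others. The estimate was a log2 change of 0.0044 (95% interval -0.93 to 0.94). It was 0.65 without normal diet library 4 (edgeR unadjusted p = 0.025, adjusted p = 0.13) and -0.53 without libraries 1 and 2.

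Stk39 and Oxsr1, the kinase pair, did not follow libraries 1 and 2. Stk39 was at 1.09, 0.954, 1.07 and 1.25 CPM on the normal diet and 1.53, 1.60, 0.686 and 0.742 CPM on high salt, so the high salt libraries fell on both sides of the normal diet ones. Oxsr1 was at 18.3, 19.8, 23.9 and 19.9 CPM and then 22.5, 22.3, 17.3 and 16.9 CPM. Among the high salt libraries 5 and 6 were the higher pair for both genes, and these are the libraries that were most alike. The log2 changes were 0.058 (95% interval -0.69 to 0.81) for Stk39 and -0.052 (95% interval -0.41 to 0.30) for Oxsr1. With libraries 5 and 6 summed to 1, Stk39 was at -0.12.

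**Figure D5:**
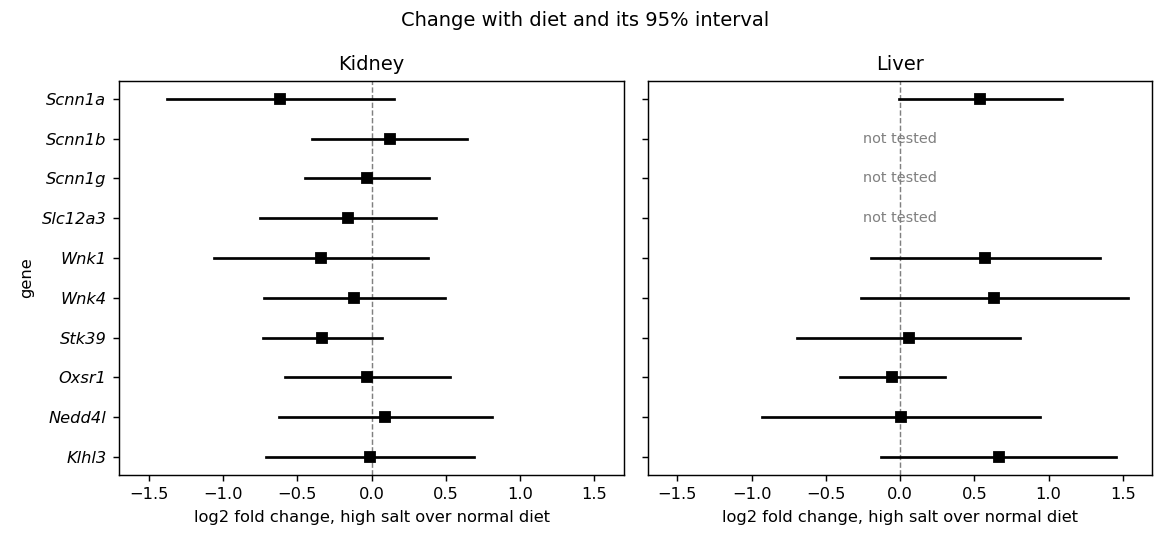
Log2 fold change with high salt of each gene (horizontal axis; squares, edgeR estimates; bars, 95% intervals; kidney n = 3 and liver n = 4 per diet). Every interval includes 0, and Scnn1a lies at -0.61 in kidney and 0.54 in liver.

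Whether diet acted differently in the tissues was tested as an interaction in the fit of all 14 libraries. By edgeR 0 of the 8 genes passed, as did 0% of the 16633 genes tested, with 1681 genes at an unadjusted p under 0.05 and 148 genes called by DESeq2. Scnn1a had the smallest p of the 8: its kidney minus liver difference in log2 change was -1.17 (SE 0.41, 95% interval -2.05 to -0.30, edgeR unadjusted p = 0.012, adjusted p = 0.37). The other 7 lay between -0.99 for Slc12a3 and 0.060 for Nedd4l. The Slc12a3 value rested on the few liver counts given above, and ranged from -1.60 to -0.32 when each library was left out. The Scnn1a difference was -0.73 to -1.40 when each library was left out, and it carries the kidney library and the liver libraries named above.

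Genes that act on these members were taken from 4 lists. WNK and ubiquitin partners had 0 of 13 tested genes called in kidney (5 higher, 8 lower) and 0 of 11 in liver (8 higher, 3 lower). Genes of aldosterone action and channel activation had 0 of 14 called in kidney (4 higher, 10 lower) and 0 of 11 in liver (7 higher, 4 lower). Relatives of NCC among the cation chloride cotransporters had 0 of 7 called in kidney (4 higher, 3 lower) and 0 of 6 in liver (5 higher, 1 lower). Median log2 changes were -0.085, -0.12 and 0.11 in kidney and 0.062, 0.24 and 0.36 in liver, in that order, beside the medians of all genes given above. Relatives of ENaC had 0 of 1 tested called in kidney and 1 of 2 in liver.

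That gene was Asic5, a bile acid-sensitive channel of the ENaC family, which fell in liver on high salt. It was at 5.42, 5.83, 5.35 and 3.68 CPM on the normal diet and 1.46, 1.14, 2.58 and 1.77 CPM on high salt. The diets did not overlap, and the means were 5.07 ± 0.952 and 1.73 ± 0.617 CPM (SD, n = 4 each). The log2 change was -1.55 (SE 0.28, edgeR adjusted p = 0.043). Normal diet libraries 1, 2 and 3 lay close together here. The call was lost without normal diet library 1 or 2, without both of them, without high salt library 5, 6 or 8, and with libraries 5 and 6 summed (edgeR adjusted p up to 0.17), while the log2 change stayed between -1.81 and -1.38.

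Sgk1, the aldosterone-induced kinase that restrains NEDD4-2, was at 24.9, 53.1 and 58.3 CPM in kidney on the normal diet and 38.5, 32.6 and 39.8 CPM on high salt. Normal diet library 1, the highest for 9 of the 10 genes, was the lowest for Sgk1. The log2 change was -0.30 (95% interval -1.01 to 0.42), and without that library it was -0.59 (edgeR unadjusted p = 0.0065, adjusted p = 0.23). Nr3c2, the mineralocorticoid receptor, was at 11.3 ± 0.982 and 10.1 ± 0.848 CPM in kidney (SD, n = 3 each), a log2 change of -0.17 (95% interval -0.60 to 0.27). Hsd11b2, the enzyme that shields that receptor from glucocorticoids, had a kidney log2 change of 0.13 (95% interval -0.56 to 0.82), and Cul3, the scaffold of the KLHL3 ligase, one of -0.089 (95% interval -0.53 to 0.35). Umod, the uromodulin gene of the thick ascending limb, was at 1360 ± 402 and 1282 ± 253 CPM (SD, n = 3 each), a log2 change of -0.086 (95% interval -0.73 to 0.56).

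In liver the log2 changes were 0.24 (95% interval -0.49 to 0.97) for Sgk1, 0.33 (95% interval -0.07 to 0.73) for Nr3c2 and 0.090 (95% interval -0.29 to 0.47) for Cul3. Kidney exceeded liver on the normal diet for Sgk1 by 1.71 and for Cul3 by 1.38 on the log2 scale (edgeR adjusted p = 0.00057 and 5.2e-06). Nr3c2 did not pass that test, at -0.23 (edgeR adjusted p = 0.31).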

How the data were processed

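SMARTer mRNA libraries from total RNA of liver and kidney were sequenced, per the labels' protocols. Deposited count tables hold expected counts, fractional estimates from the authors' E/M quantification, as the file names state. The submitters' processing notes name Partek 7.0, STAR 2.5.3a, DESeq2 and mm10, with no role. The authors also deposited normalized values, a linear signal per gene, and how they were normalized is not given in the sources used here. Start positions matched GENCODE M21 for 99.45% of the 19707 kidney genes and 99.43% of the 19191 liver genes named once in both. All 14 libraries were grouped by the tissue and diet of the labels. High salt liver columns, numbered 5 to 8, show the diet but match no title. Unused per-sample columns numbered 0.

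Counts were rounded and tested with edgeR 4.0.16 in R 4.3.3 (quasi-likelihood, TMM, filterByExpr, Benjamini-Hochberg under 0.05), per tissue by diet, and over all libraries for the interaction and for kidney against liver. Replicate spread, a biological coefficient of variation of 0.30 in kidney and 0.314 in liver, limits most genes more than counting error does. The fit was tested on simulated counts.

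The members and lists were chosen with earlier results of these data known. Named were all members, list genes called over all genes in a diet comparison or the interaction, Sgk1, Nr3c2, Hsd11b2, Cul3, Umod, and the 3 genes most correlated with Slc12a3. Other marker genes, Gm11615 and A330084C13Rik were named after their values were seen. Alternatives were other scalings and filters, DESeq2 1.42.0, limma 3.58.1 on log2 of the normalized values with pseudocounts of 1 and 0.1, mitochondrial genes removed, a replicate block in kidney, 1 fit of both tissues, libraries summed, and libraries left out. The coordinates printed are 1-based.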

Additional observations from a re-analysis of the deposited data

Results flagged for a closer look

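Umod, the thick ascending limb marker, stood at 0.346 CPM in normal diet liver library 3, far from the 0 to 0.0240 CPM of the other 3 normal diet liver libraries. The gap was 0.931 of the range of the group. Of the 26 liver groups of 4 libraries checked 1 stood out in this way. Chance sets apart about 1 in 20 groups of normally distributed values, a rate that does not hold for values this near 0. The summed thick ascending limb markers were 0.409 CPM in that library, below high salt liver libraries 7 (1.97 CPM) and 8 (0.548 CPM). Kidney groups of 3 were not checked.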

How the results depend on the processing

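The 55 results had 1042 values under alternatives, of which 947 kept their direction and side of the threshold. With 3 or 4 libraries per group, replicate spread limits what could be called. Kidney genes called with diet were 11 with DESeq2 and 0 when each library was left out. Whether replicate numbers pair the kidney samples was not settled, since 3 libraries per diet are too few to decide. Deviations of the same number correlated at 0.55, 0.55 and -0.15, and not every library correlated best with its own number. With a replicate block 0 kidney genes were called, Oxsr1 was at 0.0077 and Klhl3 at 0.021. In that fit 459 genes had an unadjusted edgeR p under 0.05, against 318 without the block. Scnn1a had the smallest p of the 10 members there, at -0.53 (edgeR unadjusted p = 0.048, adjusted p = 0.998). High salt liver columns match no title number, so no block was fitted there. Liver genes called were 1122 with DESeq2, 260 with both tissues in 1 fit, 52 without normal diet libraries 1 and 2, 12 with high salt libraries 5 and 6 summed, and 12 to 765 when each library was left out. Interaction genes called were 148 with DESeq2, 2 with at least 10 counts in every library, 1 without liver libraries 1 and 2, and 0 to 7 when each was left out. Genes called in either direction between kidney and liver were 9758 to 10790 when each was left out.

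Log2 changes near 0 turned sign, and the cause was not tested. In kidney, Oxsr1 was at 0.0168 and 0.0169 with limma on the deposited values (pseudocounts 1 and 0.1), and Klhl3 at 0.0037 and 0.0038. Klhl3 was at 0.0091 with upper quartile scaling and 0.0028 with at least 10 counts in every library. In liver, Stk39 was at -0.049 and -0.053 with limma and -0.12 with libraries 5 and 6 summed. Without libraries 1 and 2, Stk39 was at -0.028, Nedd4l at -0.53 and Cul3 at -0.082. The Nedd4l interaction was -0.029 with libraries 5 and 6 summed. Between the tissues, Oxsr1 was at 0.00069 with RLE scaling, 0.21 with upper quartile scaling, 0.00098 with DESeq2 and 0.13 with at least 10 counts. Nr3c2 was at 0.078 with upper quartile scaling and 0.015 without libraries 1 and 2.

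Leaving out each library in turn gave log2 changes in kidney of -0.013 to 0.31 for Scnn1b, -0.12 to 0.023 for Scnn1g, -0.31 to 0.057 for Slc12a3, -0.34 to 0.12 for Wnk4, -0.18 to 0.25 for Oxsr1, -0.12 to 0.51 for Nedd4l, -0.22 to 0.33 for Klhl3, -0.11 to 0.50 for Hsd11b2 and -0.23 to 0.18 for Umod. In liver the ranges were -0.15 to 0.22 for Stk39, -0.12 to 0.021 for Oxsr1 and -0.24 to 0.65 for Nedd4l. The interaction ranged from -0.14 to 0.29 for Oxsr1 and -0.56 to 0.47 for Nedd4l, and kidney against liver from -0.37 to 0.059 for Oxsr1. Chosen after seeing the data were the length of the longest coding transcript for levels per length and the alternatives of the Scnn1a to Scnn1b ratio. With that length Slc12a3 was at 58.7 and Wnk1 at 22.5 CPM per 1000 bases in kidney on the normal diet.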
